A study of Bos taurus with 6 samples.

Results

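The MCM helicase and the proteins that license replication origins were measured as RNA in rumen epithelial primary cells (REPC), grown from the rumen of a Holstein bull calf of 2 weeks that was fed milk replacer. The set was chosen by gene name and holds 10 genes, MCM2 to MCM7, MCM10, CDC6, CDT1 and GMNN. They occupied 11 of the 32183 gene entries of the series, because MCM4 had 2 entries, and all 11 passed the filter on low values. The groups were 3 control cultures and 3 cultures given 5 mM butyrate in the medium for 24 h, a short-chain fatty acid of rumen fermentation that inhibits histone deacetylases. All cells came from 1 calf, so the spread between cultures is a spread between cultures of these cells and not between animals.

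A replication origin is licensed in G1, when the origin recognition complex (ORC), CDC6 and CDT1 load a ring of the MCM2 to MCM7 proteins onto DNA. Geminin, encoded by GMNN, binds CDT1 from S phase to mitosis and blocks further loading, so that each origin fires once per cycle. The loaded ring becomes the active helicase when CDC45 and the GINS proteins join it, and MCM10 takes part in this step. Genes of this group are well known as targets of the E2F transcription factors and are low in resting cells, and MCM proteins are in common use as proliferation markers.

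Expression was given by the authors as FPKM, the number of sequenced fragments scaled to the length of the transcript and to all mapped fragments of the culture. The summed FPKM of a culture was 678035 to 681912 in control and 619401 to 629037 after butyrate. The interval deposited with each FPKM corresponds to about 5756613 to 6186809 fragments per culture, without a gap in depth between the groups. Of 13 epithelial markers, KRT8, KRT5 and CDH1 had mean control FPKM of 1380, 401 and 49.8. EPCAM, KRT10 and IVL were low at 0.540, 0.492 and 0.237, and so were KRT4 and KRT13 at 1.51 and 2.60. Fibroblast markers were present too, with COL1A1 at 1149 and VIM at 2464, while LUM and PDGFRA were low at 0.149 and 0.306. The 9 tested fibroblast markers all rose, where 32.5% of all tested genes rose. After quantile normalization 7 of the 9 passed, and LUM and PDGFRA did not. Of 5 endothelial markers, CDH5 was listed at 0 in all 6 cultures, while the 2 that were tested rose, VWF from a mean FPKM of 0.456 to 3.31 and PECAM1 from 1.54 to 3.95, and the list summed to 1.97 to 2.16 in control and 6.48 to 8.43 after butyrate. Of 6 immune markers, PTPRC was listed at 0 throughout and 2 were tested, of which CD14 had 5.57 and 6.80 without passing and CD68 rose from 0.595 to 1.21, a call lost after quantile normalization, and the list summed to 5.12 to 7.15 and 7.43 to 9.52. Of the 13 epithelial markers 7 rose, 2 fell (KRT4 and KRT5, the latter not after rescaling to TPM or quantile normalization) and 4 did not pass (CDH1, DSP, KRT13 and IVL), with a median log2 fold change of 0.38. After quantile normalization 5 rose, without KRT10 and TP63. The sum of the epithelial list, 2429 to 2543 in control and 5051 to 5135 after butyrate, moved mainly through KRT19, with a mean FPKM of 492.3 and 1953, KRT8, with 1380 and 1971, and KRT14, with 72.5 and 499.97. The fibroblast list summed to 4458 to 4606 and 6492 to 6827, and the smooth muscle list, with 4 of 6 genes lower and 1 higher, to 6491 to 6819 and 2872 to 3480. Mean FPKM fell from 3074, 2752 and 805 to 1978, 1006 and 216 for TAGLN, ACTA2 and CNN1, the bulk of the smooth muscle sum. MYH11 and DES were low in control, at 0.662 and 0.367, and DES was the gene that rose. The part of these shifts in the results on licensing genes was not tested.

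All 10 licensing genes fell after butyrate, and in each of the 11 entries the 3 butyrate values lay below the 3 control values. The share of all tested genes that separate in this way was not counted. The mean FPKM after butyrate was between 5.98% of the control mean for MCM3 and 28.0% for MCM6. Fold changes were computed on log2(FPKM + 0.1), which makes the change of low values look smaller than it is, and 15813 genes were tested with limma. In each entry the lowest lower bound of the deposited intervals in control exceeded the highest upper bound after butyrate, for CDC6 with 2.36 against 0.755 and for the short MCM4 entry with 14.7 against 6.70. These intervals cover the estimation error only, and the share of all tested genes with such a gap was not counted either. The fall passed a Benjamini-Hochberg adjusted p of 0.05 in 11 of 11 entries, where 25.9% of all tested genes fell and 32.5% rose by this rule. A stricter rule took the study's thresholds for differentially expressed genes (DEGs). These were a log2 fold change beyond 2 and a p under 0.05 after Bonferroni correction. The study's own DEGs came from Cufflinks tools, while here the p came from limma. By this rule 10 of 11 entries were lower, where 1.51% of all tested genes were lower and 2.46% were higher. MCM6 was the entry that did not meet the second rule. The median log2 fold change of the 11 entries was -3.35, beside 0.10 for all genes tested. In bulk RNA, fewer cells in cycle and less of these RNAs in each cell cannot be told apart.

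**Figure D1:**
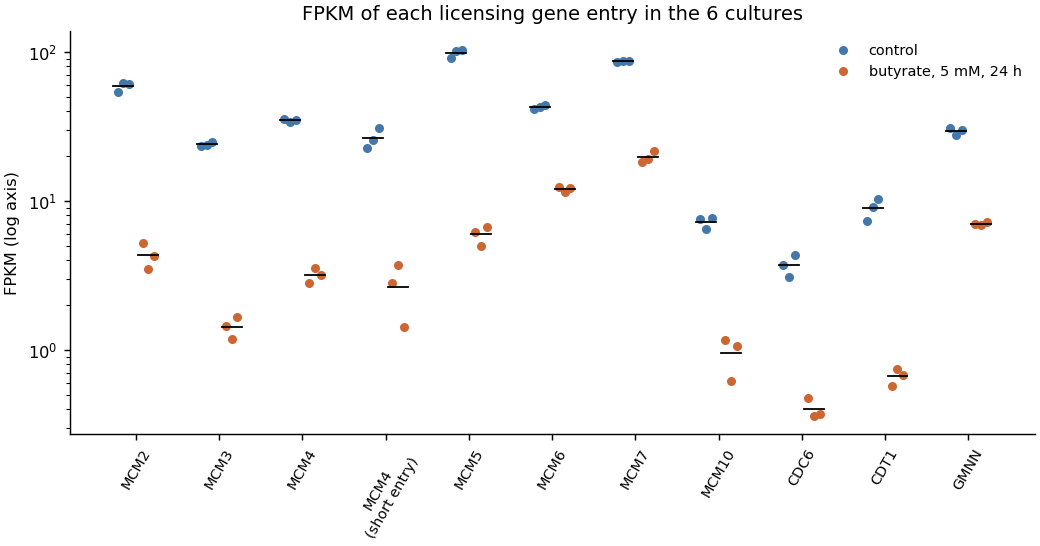
FPKM (log axis) of each entry in the 3 control cultures (blue) and the 3 butyrate cultures (orange), each point a culture and each line the mean of a group. The groups did not overlap in any entry, and MCM6, MCM7 and GMNN had the narrowest gap.

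MCM5, a subunit of the ring, had the highest control level of the set, and its fall was not told apart from that of MCM3. Its entry lies on chromosome 5 (chr5:73990719-74009154, build UMD3.1). FPKM was 90.8, 101.9 and 103.8 in control and 6.22, 4.98 and 6.69 after butyrate. The group means were 98.8 ± 7.05 and 5.96 ± 0.884 (SD, n = 3), which gave a log2 fold change of -4.04 ± 0.11 (SE, limma, Bonferroni-adjusted p = 3.1e-06). MCM3, on chromosome 23 (chr23:24438946-24456316), had the lowest control level among MCM2 to MCM7. Its FPKM was 23.3, 23.7 and 24.8 in control and 1.44, 1.18 and 1.67 after butyrate, with means of 23.9 ± 0.772 and 1.43 ± 0.246 (SD, n = 3). This was a log2 fold change of -3.98 ± 0.14 (SE, limma, Bonferroni-adjusted p = 1.9e-05). Which of the pair fell further depended on the scale: the control mean was 16.7 times the butyrate mean for MCM3 and 16.6 times for MCM5, and MCM3 also had the larger log2 fold change with a pseudocount of 0.01 (-4.07 against -4.06) and after quantile normalization (-4.21 against -4.01).

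MCM2 lies on chromosome 22 (chr22:60565099-60581582) and encodes the subunit that also binds histones H3 and H4. Its FPKM was 54.2, 62.0 and 61.1 in control and 5.18, 3.51 and 4.29 after butyrate, a log2 fold change of -3.76 ± 0.14 (SE, limma, Bonferroni-adjusted p = 2.5e-05). MCM2 rested on about 869 to 933 fragments per control culture and 70 to 91 per butyrate culture. MCM4, on chromosome 14, had a long entry (chr14:21164877-21192689) and a short one of 806 bp (chr14:21272523-21273328), 79833 bp further along. The long entry had an FPKM of 35.6, 34.1 and 34.9 in control and 2.80, 3.53 and 3.20 after butyrate, and its log2 fold change was -3.42 ± 0.10 (SE, limma, Bonferroni-adjusted p = 5.8e-06). The short entry had 22.8, 25.4 and 30.6 in control and 2.80, 3.69 and 1.43 after butyrate, with a log2 fold change of -3.35 ± 0.30 (SE). The short entry rested on about 2 to 6 fragments per butyrate culture and 32 to 40 per control culture, by the deposited intervals. Both MCM4 entries fell by nearly the same amount, but how reads were divided between them is uncertain. The DEG call of the short entry was lost when a culture was left out, in 5 of 6 cases (Bonferroni-adjusted p in limma from 0.011 to 0.547), and was kept without butyrate replicate 3.

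MCM7 and MCM6, the other two subunits, fell less. MCM7 lies on chromosome 25 (chr25:36885892-36893323), and its FPKM was 85.7, 86.8 and 87.4 in control and 18.3, 19.2 and 21.6 after butyrate. The log2 fold change was -2.13 ± 0.07 (SE, limma, Bonferroni-adjusted p = 1.2e-05), so MCM7 lay just past the fold threshold of 2. By the deposited intervals MCM7 rested on about 886 to 916 fragments per control culture and 283 to 333 per butyrate culture. That is a smaller fall than the one in FPKM, and the reason was not tested. The entries of MIR106B, MIR93 and MIR25 lie within the MCM7 entry and were listed at 0 in all cultures. MCM6 lies on chromosome 2 (chr2:61821930-61856346), with an FPKM of 41.6, 43.0 and 44.2 in control and 12.4, 11.5 and 12.2 after butyrate. Its log2 fold change was -1.83 ± 0.07 (SE, limma, Bonferroni-adjusted p = 2.6e-05), and only the fold threshold kept it from being a DEG. MCM6 rested on about 1168 to 1252 fragments per control culture and 315 to 326 per butyrate culture. By these fragments MCM6 fell further than MCM7, the reverse of the order by FPKM.

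**Figure D2:**
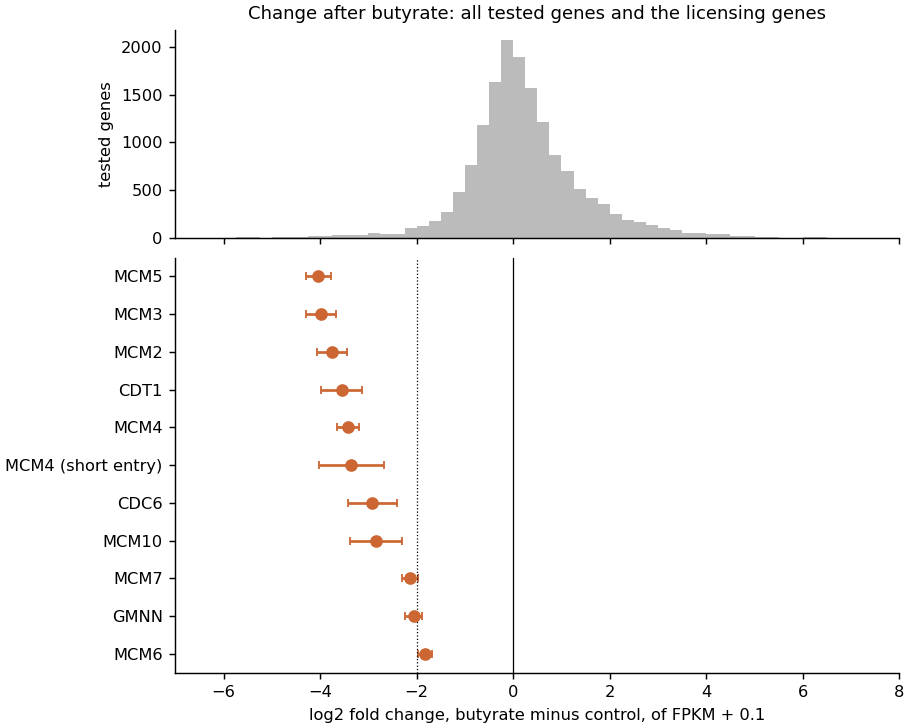
Log2 fold change of FPKM + 0.1 for all 15813 tested genes as a histogram (top) and for each licensing entry with its 95% interval from limma (bottom), with the DEG fold threshold dotted. The entries lay between -4.04 for MCM5 and -1.83 for MCM6, while the median of all genes was 0.10.

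The 6 subunits enter the ring in equal numbers, and their RNAs were compared for whether they fell in equal measure. The summed FPKM of MCM2 to MCM7 was 331.2, 351.4 and 356.3 in control and 46.3, 43.9 and 49.7 after butyrate. The control mean of 346.3 ± 13.3 (SD, n = 3) was 7.42 times the butyrate mean of 46.6 ± 2.90 (SD, n = 3), and no culture of one group reached the other (p = 0.1 in a two-sided exact permutation test, which is the lowest that 3 against 3 allows). The make-up of the sum shifted as well. MCM6 and MCM7 supplied 12.4% ± 0.162 and 25.03% ± 0.736 (SD, n = 3) of it in control, and 25.8% ± 1.13 and 42.3% ± 2.33 (SD, n = 3) after butyrate. MCM5 went from 28.5% ± 0.963 to 12.7% ± 1.22 (SD, n = 3), and the shares of MCM2, MCM3 and MCM4 were also lower in every butyrate culture than in every control culture.

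**Figure D3:**
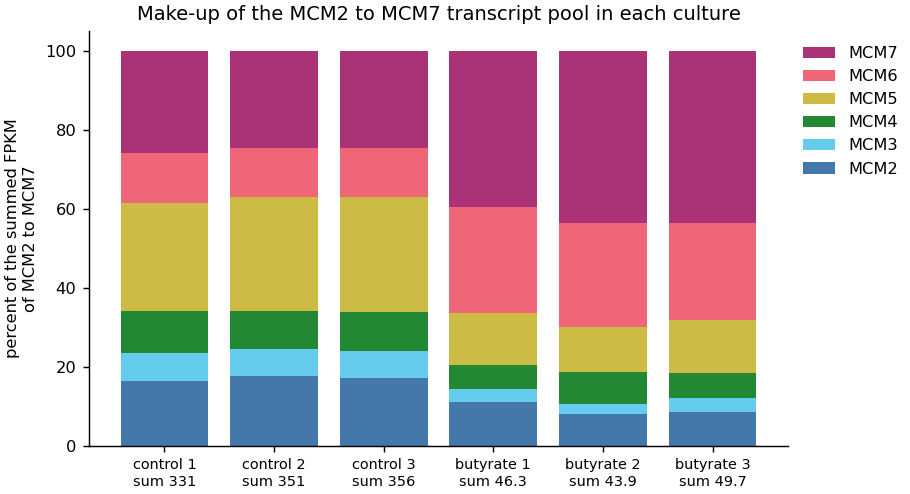
Share of each subunit in the summed FPKM of MCM2 to MCM7, in percent, with 1 bar per culture and the sum under it. MCM6 and MCM7 together took the larger part of each butyrate bar and the smaller part of each control bar.

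Of the 15 pairs of subunits, 11 differed in their log2 fold change in fits over all genes of the ratio to one subunit (limma, Benjamini-Hochberg adjusted p under 0.05). In these fits most genes of any kind differ from a strongly falling reference, 99.0% of those tested for MCM2, 99.1% for MCM3, 98.7% for MCM4, 99.2% for MCM5 and 94.3% for MCM6. The count of pairs is therefore best read through the sizes. MCM6 fell less than MCM2, MCM3, MCM4 and MCM5 by 1.60 to 2.21 on the log2 scale, and MCM7 fell less than these by 1.29 to 1.90. The widest difference was that of MCM5 and MCM6, -2.21 with a 95% interval from -2.57 to -1.85. Between MCM6 and MCM7 the difference was 0.31, with an interval from 0.12 to 0.49. MCM4 fell less than MCM5 by 0.61 and less than MCM3 by 0.56, with intervals from 0.25 to 0.98 and from 0.14 to 0.99. The 4 pairs without a call were MCM2 with MCM3, MCM4 and MCM5, and MCM3 with MCM5, where the difference was 0.05 with an interval from -0.28 to 0.38. Computed on FPKM + 0.1, the ratio of MCM2 to MCM5 did not overlap between the groups. This held for 12 of the 15 pairs, and the share among all genes was not counted. A fit on ratios carries the noise of the reference into every gene, and with intervals built instead from the separate errors of both subunits, 11 of 15 again excluded 0.

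**Figure D4:**
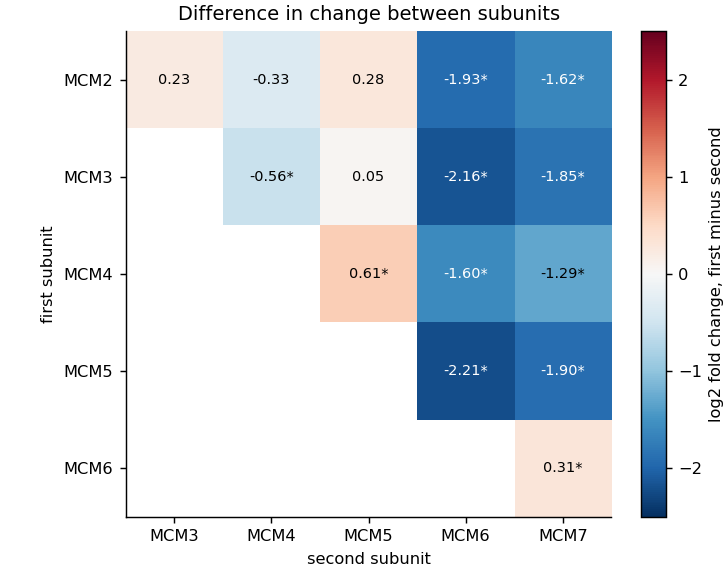
Difference in log2 fold change (butyrate against control) between the subunit named in the row and the one named in the column, with an asterisk where the adjusted p was under 0.05. The columns of MCM6 and MCM7 hold the large differences, from -1.29 to -2.21 against MCM2 to MCM5, and 0.31 between them.

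The order of the levels changed with these unequal falls. In every control culture it was MCM5, MCM7, MCM2, MCM6, MCM4 and MCM3 from high to low, and no 2 neighbours overlapped over the 3 cultures. After butyrate it began with MCM7, MCM6 and MCM5 and ended with MCM3 in each culture, while MCM2 overlapped with both MCM5 and MCM4. The highest of the 6 levels was 3.89, 4.31 and 4.19 times the lowest in control and 12.7, 16.3 and 13.0 times the lowest after butyrate (p = 0.1 in the same exact permutation test). Each level is per length, so these are ratios of transcript levels.

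CDC6, CDT1 and MCM10 were the least abundant genes of the set. CDT1, which brings the ring to the origin, lies on chromosome 18 (chr18:14053385-14057711). Its FPKM was 7.37, 9.05 and 10.2 in control and 0.571, 0.739 and 0.674 after butyrate, a log2 fold change of -3.55 ± 0.18 (SE, limma, Bonferroni-adjusted p = 0.000511). The entry shares its last 15 bp with the more abundant APRT, an enzyme of purine salvage, whose FPKM was 231.5 to 237.0 in control and 176.0 to 182.9 after butyrate. CDC6, the ATPase that acts with ORC in loading, lies on chromosome 19 (chr19:41185785-41197909). Its FPKM was 3.73, 3.09 and 4.32 in control and 0.474, 0.361 and 0.370 after butyrate, a log2 fold change of -2.92 ± 0.22 (SE, limma, Bonferroni-adjusted p = 0.012). After butyrate, CDT1 rested on about 5 to 8 fragments per culture and CDC6 on about 7 to 11. The ratio of CDC6 to CDT1 was 0.506, 0.341 and 0.422 in control and 0.830, 0.489 and 0.549 after butyrate, so the ranges overlapped. With 0.1 added to each FPKM they did not overlap. The DEG call of CDC6 was lost whichever of the 6 cultures was left out (limma, Bonferroni-adjusted p from 0.083 to 0.212), and with a pseudocount of 1 its log2 fold change was -1.74.

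MCM10 lies on chromosome 13 (chr13:28132528-28170527) and its protein is no subunit of the ring. Its FPKM was 7.55, 6.43 and 7.72 in control and 1.17, 0.616 and 1.06 after butyrate, so butyrate replicate 2 was the lowest. The log2 fold change was -2.84 ± 0.23 (SE, limma, Bonferroni-adjusted p = 0.021). Its DEG call was kept without butyrate replicate 2 and lost without each of the other 5 cultures (limma, Bonferroni-adjusted p from 0.028 to 0.343).

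GMNN, the gene of the inhibitor, lies on chromosome 23 (chr23:32775574-32786342) and fell less than the gene of its target. Its FPKM was 31.0, 27.8 and 30.0 in control and 6.96, 6.91 and 7.17 after butyrate, a log2 fold change of -2.06 ± 0.08 (SE, limma, Bonferroni-adjusted p = 3.8e-05). The ratio of CDT1 to GMNN was 0.238, 0.325 and 0.341 in control and 0.082, 0.107 and 0.094 after butyrate, without overlap. The log2 fold change of CDT1 minus that of GMNN was -1.49, with a 95% interval from -1.92 to -1.07 (limma, Benjamini-Hochberg adjusted p = 9.6e-08, where 98.8% of genes differed from CDT1). With a pseudocount of 1, which presses low values such as those of CDT1 together, the difference was -0.63 and still passed. The fold of GMNN lay just past the threshold of 2, and its DEG call was lost with that pseudocount and after rescaling to TPM, at -1.93 and -1.94. CDT1 and CDC6 differed by -0.63 with an interval from -1.32 to 0.06, which did not pass. With this pair and that of GMNN, 12 of 17 pairs tested were called.

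Over the whole set, control levels ran from MCM5 down to MCM7, MCM2, MCM6, MCM4, GMNN, MCM3, CDT1, MCM10 and CDC6. CDT1 and MCM10 overlapped there, as did the short MCM4 entry with GMNN and MCM3. After butyrate GMNN stood below MCM7 and MCM6 and above MCM5 in every culture, and MCM10 and CDT1 overlapped again. CDC6 was the lowest of the set in both groups.

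The rest of the origin machinery fell to different degrees, over 6 lists of 64 named genes of which 63 were matched by name and 60 were tested. Of these, 46 fell, 3 rose and 11 did not pass the test, and 14 were DEGs, all lower. Of all tested genes, 25.9% fell and 32.5% rose, while 1.51% were lower and 2.46% higher DEGs. The same shares stand beside the counts of each list. The list nearest to the licensing genes was that of helicase activation and origin firing, whose log2 fold changes had a median of -2.36, where 11 of 13 genes fell and 6 were DEGs. RECQL4, a helicase needed at firing, went from an FPKM of 4.89 ± 0.222 to 0.277 ± 0.0737 (SD, n = 3). The GINS subunit GINS4 went from 4.30 ± 0.568 to 0.310 ± 0.161 (SD, n = 3) and was not a DEG. DBF4, the activating subunit of the CDC7 kinase, went from 9.00 ± 0.201 to 0.929 ± 0.0994 (SD, n = 3). The 2 genes that did not pass were CDC7 itself, with a log2 fold change of -0.21, and DONSON with -0.25. CDC7 passed after quantile normalization, with -0.31.

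The ORC list was uneven. ORC1, the subunit whose level varies with the cell cycle, fell from an FPKM of 4.80 ± 0.669 to 0.193 ± 0.0749 (SD, n = 3), a log2 fold change of -4.09 ± 0.27 (SE, limma, Bonferroni-adjusted p = 0.0033), and was the only DEG of the 7. ORC3, ORC5 and ORC6 fell by 1.03, 0.93 and 0.63 on the log2 scale. ORC2, ORC4 and LRWD1, which binds ORC at chromatin, had log2 fold changes of -0.40, 0.23 and -0.19 and did not pass. With other scalings ORC4 passed as a rise, at 0.35 after rescaling to TPM and 0.28 after quantile normalization, and ORC2 passed as a fall of -0.74 in the latter.

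Among the other MCM genes and their partners, 4 of 5 tested genes fell. TONSL and MMS22L, which act together on replicated chromatin, had log2 fold changes of -3.57 and -2.16, and MCM8, of the MCM8 and MCM9 helicase in recombination, had -1.76. MCM9 itself did not pass, with -0.09. MCMBP, which binds free MCM proteins, fell by 0.24 as deposited, a change that did not pass after either rescaling. All 4 fork protection genes fell, led by CLSPN and WDHD1 with -2.53 and -1.16, and TIMELESS followed with -0.77. CLSPN had an FPKM of 0.156, 0.209 and 0.0779 after butyrate, close to the added 0.1.

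Genes that control licensing through CDT1 turnover, kinases or chromatin had the smallest median, -0.39, with 7 of 13 lower and 2 higher. DTL, the substrate receptor that sends CDT1 to degradation in S phase, fell from an FPKM of 4.15 ± 0.596 to 0.269 ± 0.114 (SD, n = 3) and was the one DEG. CDK2 and CCNE2 fell with -0.92 and -0.90. CCNE1, the other cyclin E, rose from 8.24, 7.44 and 6.29 to 9.40, 11.3 and 8.89, a log2 fold change of 0.43 ± 0.14 (SE). FBXO31, a ubiquitin ligase subunit, rose with 0.73, which did not pass after quantile normalization at 0.34.

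The polymerases, clamp and primase, which work behind the helicase, had a median log2 fold change of -1.70, with 16 of 18 lower, 1 higher and 6 DEGs. After rescaling to TPM 14 were lower, without POLD2 and POLE4, and after quantile normalization 15, without POLE4. POLE2 and POLE, subunits of the leading-strand polymerase, had -3.37 and -2.95 and were not DEGs. POLE had an FPKM of 0.0132, 0.133 and 0.132 after butyrate, so the added 0.1 weighs on its fold change. PCNA, the sliding clamp, was a DEG and fell from an FPKM of 51.4 ± 2.08 to 6.54 ± 0.169 (SD, n = 3). POLD4, the smallest subunit of polymerase delta, rose from 51.2, 55.9 and 53.4 to 136.6, 141.1 and 132.2, a log2 fold change of 1.35 ± 0.05 (SE, limma, Benjamini-Hochberg-adjusted p = 2.0e-07). Whether the lists differ from each other was not tested.

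**Figure D5:**
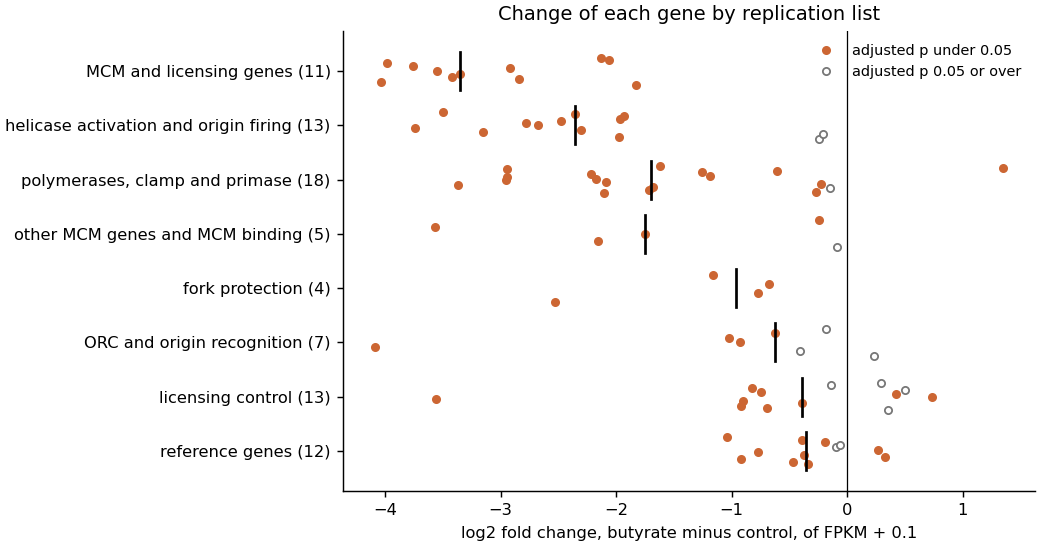
Log2 fold change of FPKM + 0.1 of each tested gene, by list, with the number of entries in brackets and the list median as a black bar. Filled points passed an adjusted p of 0.05, and the medians ran from -3.35 for the licensing genes to -0.35 for 12 reference genes.

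Beside these lists, all 6 proliferation markers fell as DEGs, where 1.51% of all tested genes were lower DEGs. Their summed FPKM was 223.8 to 232.1 in control and 11.6 to 13.8 after butyrate, and this list includes PCNA. Of 12 reference genes in common use, 8 fell and 2 rose (median log2 fold change -0.35), where 25.9% of all tested genes fell and 32.5% rose. After quantile normalization 5 of the reference genes fell and 3 rose.

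The genes whose values followed the median profile of MCM2 to MCM7 most closely over the 6 cultures were AURKB, DNAJC9, ANLN, SMC4 and HMMR. The measure was the root mean square difference of log2(FPKM + 0.1), centred on the control mean, over 11014 named genes, all of them at a mean FPKM of 1 or more. It was 0.083 for AURKB, the kinase of the chromosomal passenger complex, and 0.137 for HMMR. AURKB went from an FPKM of 23.2, 23.9 and 24.97 to 1.90, 1.65 and 2.13. DNAJC9, a histone chaperone with a J domain, went from 9.81, 8.84 and 9.82 to 0.675, 0.660 and 0.779. With 6 cultures in 2 groups, the measure is in large part a comparison of the size of the fall.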

How the data were processed

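RNA of 6 REPC cultures, 3 per group, was analysed. The authors trimmed reads with Trim Galore 0.4.1, aligned them with STAR, kept uniquely mapped reads and deposited gene FPKM from Cufflinks with an interval for each value; the submitters' processing notes name UMD3.1. Entries were joined by position, which was unique. The 2 entries with a failed estimate were left out, as were those with a mean FPKM under 0.1. Chromosome names came from gene tables of the study on that build. Log2(FPKM + 0.1) was fitted in limma 3.58.1 under R 4.3.3, the trend option allowing the variance to follow the mean, and the fit was tested on simulated data. A count model was not used on FPKM. The fragments behind a value were estimated from its interval, which covers the estimation error only. The labels do not say whether cultures were separate isolations, so p-values measure the spread between these cultures.

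The genes and lists were chosen with earlier results of these data known. The text names all 10 genes, the 3 largest passing changes of each replication list, genes passing against the direction of their list, and the 5 closest profiles. Other genes named from the lists, such as those that did not pass, were chosen after their values were seen. Alternatives were other pseudocounts, filters, scalings and thresholds, no trend, a replicate block and leaving out single cultures. Summing the MCM4 entries, counts per list under other scalings and intervals from separate errors were added after seeing the data.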

Additional observations from a re-analysis of the deposited data

How the results depend on the processing

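Across the alternatives, the fall of each licensing entry kept its direction and an adjusted p under 0.05 in 155 of 155 values, while 12 to 13 of 17 pairs were called and 41 to 47 genes of the other replication lists fell. CDT1 minus GMNN stayed past the threshold in these alternatives, at -1.86 to -0.63, and at -1.66 to -1.40 with a culture left out. The log2 difference of the summed FPKM was -2.94 to -2.77. The number of lower DEGs among the 11 entries was 7 to 8 with a culture left out, because CDC6, MCM10 and the short MCM4 entry lost the call. With all 6 cultures the same calls were lost without the filter on low values and without the trend, which left 7. MCM10 and the short MCM4 entry also lost the call with a pseudocount of 0.01, and the short entry after rescaling to TPM. GMNN lost it with a pseudocount of 1 and after rescaling to TPM, at log2 fold changes of -1.93 and -1.94. With the MCM4 entries summed, the log2 fold change of MCM4 was -3.40 and 9 of 10 genes were DEGs. The median of all genes, 0.10, was 0.24 after rescaling to TPM and -0.05 after quantile normalization.

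Over all genes, the 389 higher DEGs became 213 without a filter, 213 without the trend, 715 with a log2 fold change beyond 1 and 1146 with Benjamini-Hochberg adjustment, and 156 to 337 with a culture left out, the lowest being without a butyrate culture (166, 156 and 166 for replicates 1 to 3). The 238 lower DEGs became 141, 683 and 373 without the trend, beyond 1 and with that adjustment, and 163 to 201 with a culture left out. The causes were not tested.

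The replicate numbers were not found to pair the cultures, since deviations of same-numbered cultures correlated at 0.0228, -0.0043 and 0.0018. Under a replicate block, 226 DEGs were higher and 183 lower, 8 of 11 entries were lower DEGs, the calls of CDC6 and the short MCM4 entry were lost, and 13 of 17 pairs were called. Low fragment numbers limit CDC6, CDT1 and the short MCM4 entry most. The groups of 3 were too small for a test of single outlying cultures.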
